A study of Homo sapiens with 8 samples.

Results

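The change in gene expression with time in culture on a stiff matrix was measured in LX-2 cells, by comparing 2 RNA-seq libraries of cells cultured for 4 days on a 40 kPa matrix with 2 libraries of cells cultured there for 2 days. These 4 libraries were chosen by their labelled time and stiffness, out of 8 in the series, and the comparison was read across all 14570 genes that passed a filter on low counts, of 25369 in the count table. LX-2 is an immortalized human hepatic stellate cell line, labelled wild type, and the cells were grown on polyacrylamide hydrogels with no other treatment named in the labels. The other 4 libraries came from the same line on a 2 kPa matrix, called soft here, with 2 libraries at each of the same times. By their labels, the groups compared differed in time in culture alone, with no agent or genetic change between them. Cell density, to which the paper relates chromatin sites open at 4 days, cannot be told apart from time here. The same holds for any difference in harvest or library preparation. The 2 libraries of a condition are biological replicates by the study's description. All libraries came from 1 line, so p-values measure the spread between cultures of this line and not between donors.

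Hepatic stellate cells are the vitamin A storing cells of the liver that, on injury, turn into contractile, matrix-producing myofibroblasts. A stiff substrate favours this activated state through integrin adhesions, actin tension and the transcription co-regulators YAP, TAZ and MRTF. Myofibroblasts are known for alpha smooth muscle actin, collagens, lysyl oxidases and TIMPs, while matrix metalloproteinases cleave the matrix. The stellate cell markers were only partly present in the stiff libraries. VIM, which encodes the filament protein vimentin, lay between 2550.0 and 6360.0 in counts scaled to library size (CPM), and COL1A1, a chain of type I collagen, between 504 and 904 CPM. DES, LRAT and DCN, also markers of stellate cells, had 2 counts or fewer in every stiff library, whereas LHX2 (10.1 to 14.3 CPM), NGFR (5.55 to 13.0 CPM), HAND2 (3.90 to 6.28 CPM) and RELN (2.82 to 6.14 CPM) were detected in all 4. The summed level of the 15 stellate markers was 3526 to 3681 CPM at 2 days and 4744 to 6933 CPM at 4 days, most of it from VIM. Without VIM the sum was 905 to 976 CPM at 2 days and 573 to 745 CPM at 4 days, most of it from COL1A1. Markers of other liver cells were low, with sums of 4.45 to 8.52 CPM for hepatocytes, 33.3 to 60.4 CPM for cholangiocytes, 0.246 to 1.30 CPM for endothelial cells and 106 to 127 CPM for macrophages, nearly all of the last from CD68.

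The libraries held 19955975 to 27263935 counts, and 1 of them stood apart. In replicate 2 of the stiff 4-day cells, the shortest quintile of genes took 28.1% of the counts, against 18.2% to 22.8% in the other 7 libraries. The 2 stiff 4-day libraries differed from each other by a median coefficient of variation of 31.02% per gene, against 4.28% for the 2 stiff 2-day libraries. Across genes, the difference between these 4-day replicates followed gene length, with a Spearman rho of -0.57. Several gene lists and genes are therefore also given without 1 of the 4-day libraries.

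Between 2 and 4 days on the stiff matrix, 2034 genes were higher and 1990 were lower at an adjusted p-value under 0.05 by the quasi-likelihood test of edgeR (Benjamini-Hochberg adjusted), which is 14.0% and 13.7% of the genes tested. The smallest adjusted p-value was 0.000737. A change of at least 2-fold was reached by 659 of the higher and 967 of the lower genes, and one of at least 4-fold by 120 and 265. Each called gene had both 4-day libraries on the same side of both 2-day libraries. Most genes tested had this too, called or not, 4601 of them on the higher and 4529 on the lower side. A lack of overlap therefore does not set a gene apart. The median log2 fold change over all genes tested was 0.03, and it was -0.10 when no scaling factors were used. In these bulk libraries, a change in every cell and a change in the share of cells that express a gene cannot be told apart. Each gene group is described against these background shares and this median. Fits without a 4-day library called more genes in total, as given below. List counts from those fits therefore do not compare with these shares. Levels are in TMM-normalized CPM, given as replicate 1 and then replicate 2, and fold changes are on the log2 scale, 4 against 2 days.

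The calls depended on how the spread was estimated. All 8 libraries shared one estimate of the spread in this fit. When the 4 stiff libraries were fitted on their own, edgeR called 0 genes higher and 0 lower of 14069, with a smallest adjusted p-value of 0.0513 and 4188 genes at an unadjusted p-value under 0.05, of which 2090 were higher and 2098 lower. DESeq2 on the same 4 libraries called 821 higher and 1067 lower, of which 807 and 1048 were among the calls above. Leaving out the 4-day replicate 1 or 2 raised the calls to 3960 and 3170 higher and 3866 and 3399 lower, whereas leaving out the 2-day replicate 1 or 2 lowered them to 326 and 165 higher and 535 and 305 lower.

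Base composition moved with the direction of change. Transcripts of the higher genes had a median GC content of 41.7%, those of the lower genes 58.3% and those of all genes tested 48.9%. In the quintile of genes with the lowest GC content, 32.5% were higher and 1.60% lower, and in the quintile with the highest, 1.67% were higher and 32.4% lower. Across the 14084 genes with a length and GC content, the log2 fold change had a Spearman rho of -0.44 with GC content and -0.16 with length. On the soft matrix, the change with time had a rho of -0.57 with GC content. The part of base composition in each result was not tested. As a second reading, an offset per library for gene length and GC content left 2172 genes higher and 2263 lower, 1226 and 1344 of them shared with the calls above, and its counts are given beside those of the gene lists.

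**Figure D1:**
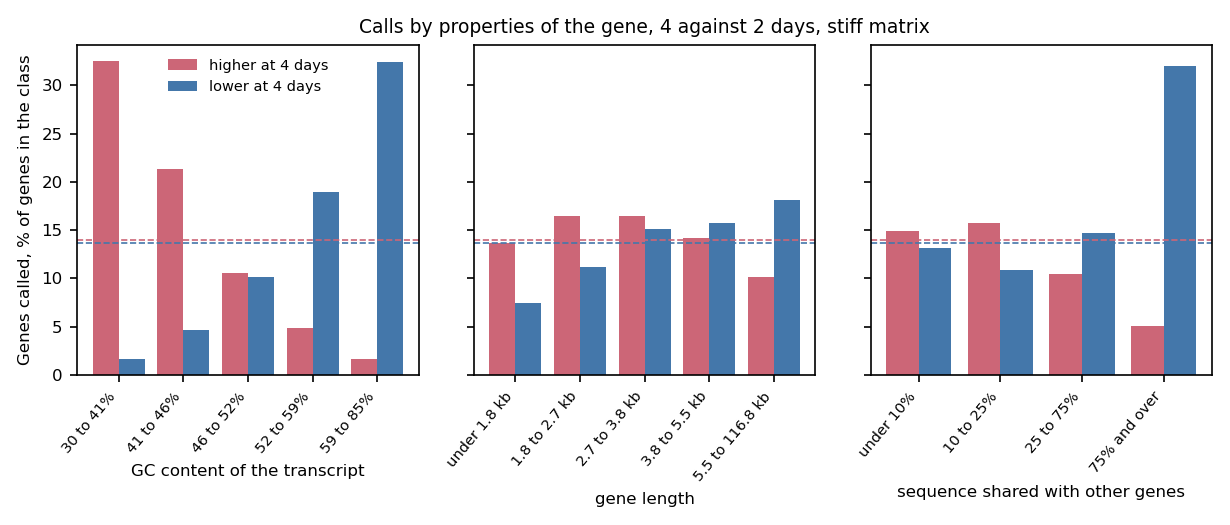
Share of genes called higher (red) or lower (blue) at 4 days on the stiff matrix, in % of the genes of each class (y axis), by quintiles of transcript GC content in % (left), by quintiles of gene length in kb (middle) and by the share of a gene's 31-base words that also occur in another gene (right), with dashed lines at the shares over all genes tested. The share of higher genes falls from 32.5% to 1.67% with rising GC content, and the share of lower genes is 32.0% where at least 75% of the sequence is shared.

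The contractile genes of smooth muscle rose in the largest proportion of any list of at least 15 tested genes, by a small margin. It was 39.1%, against 36.4% each for YAP/TAZ target genes and for growth factor ligands and receptors. Of 23 members tested, 9 were higher and 1 was lower, with a median log2 fold change of 0.57. With the offset for length and GC content 10 were higher and 0 lower, with a median of 0.49. Without replicate 1 or 2 of the 4-day cells the median was 0.50 or 0.34. MYOCD, which encodes myocardin, the co-activator that binds serum response factor (SRF) to turn on smooth muscle genes, measured 0.798 and 1.09 CPM at 2 days and 16.1 and 10.9 CPM at 4 days (log2 fold change 3.83, standard error 0.301, adjusted p = 0.00113). Its gene lies on chromosome 17, 12569207 to 12672266 (GRCh37). ACTG2, the gamma smooth muscle actin of enteric muscle, measured 9.78 and 5.86 CPM at 2 days and 32.4 and 41.4 CPM at 4 days (log2 fold change 2.24, standard error 0.294, adjusted p = 0.00290). Both 4-day libraries exceeded both 2-day libraries in each of these genes by a wide margin. MYOCD shares 7.31% of its sequence with other genes and ACTG2 1.33%. In 8 of the 23 members tested the shared part is at least 10%, and its effect on the counts of this list was not tested.

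LMOD1, an actin filament nucleator of smooth muscle, went from 1.01 and 1.05 CPM to 3.58 and 3.28 CPM (log2 fold change 1.74, adjusted p = 0.00376). CNN1, the calponin of differentiated smooth muscle, went from 11.8 and 11.7 CPM to 21.8 and 28.2 CPM (log2 fold change 1.09, adjusted p = 0.00554). ACTA2, the alpha smooth muscle actin that serves as the classical marker of activated stellate cells, measured 8.02 and 8.08 CPM at 2 days and 12.4 and 16.5 CPM at 4 days (log2 fold change 0.84, standard error 0.181, adjusted p = 0.0142). The 4-day replicates of ACTA2 lay above both 2-day libraries, which were nearly equal to each other. ACTA2 shares 37.1% of its sequence with other genes, and the effect of this on its counts was not tested. CALD1, CNN2 and CNN3, which encode the thin filament regulators caldesmon and calponins 2 and 3, rose less, with log2 fold changes of 0.69, 0.69 and 0.57. CRYAB, the small heat shock protein of muscle, was called higher (2.36) at levels of 0.252 and 0.209 CPM at 2 days and 0.982 and 1.44 CPM at 4 days.

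TAGLN, the SM22 protein, and MYL9, the myosin light chain, were higher in both 4-day libraries without passing the test, with adjusted p = 0.0537 and 0.0580. SMTN, which encodes smoothelin, fell (log2 fold change -0.66, adjusted p = 0.0136), but not with the offset for length and GC content (-0.11, adjusted p = 0.345). SRF itself fell, from 91.9 and 86.5 CPM to 61.9 and 65.7 CPM (log2 fold change -0.48, adjusted p = 0.0345).

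Promoters of the contractile genes are shown because SRF binds a motif called the CArG box, which is searched for here on both strands. Promoter sequences of RefSeq (GRCh38.p14, 250 bases before to 50 after the gene's start) were found for 8 of the 23 genes. A CArG box lay in 3 of these 8 (37.5%), against 454 of all 35116 promoters (1.29%). Among the 4 of the 8 that were called higher it lay in 2, and among the 4 that were not called in 1. Capitals mark the motif, each sequence is written 5′ to 3′ on the gene's strand, and MYLK, the myosin light chain kinase (log2 fold change -0.15, adjusted p = 0.790), is the gene that was not called. ACTG2 stands at chr2:73892758-73893057 on the plus strand, CNN2 at chr19:1026358-1026657 on the plus strand and MYLK at chr3:123620499-123620798 on the minus strand.
ACTG2: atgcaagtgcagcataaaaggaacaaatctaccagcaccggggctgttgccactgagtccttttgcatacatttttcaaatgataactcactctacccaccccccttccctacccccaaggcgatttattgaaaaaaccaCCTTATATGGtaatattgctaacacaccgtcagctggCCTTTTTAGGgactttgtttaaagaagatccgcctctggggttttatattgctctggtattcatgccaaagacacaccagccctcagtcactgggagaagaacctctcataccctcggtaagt
CNN2: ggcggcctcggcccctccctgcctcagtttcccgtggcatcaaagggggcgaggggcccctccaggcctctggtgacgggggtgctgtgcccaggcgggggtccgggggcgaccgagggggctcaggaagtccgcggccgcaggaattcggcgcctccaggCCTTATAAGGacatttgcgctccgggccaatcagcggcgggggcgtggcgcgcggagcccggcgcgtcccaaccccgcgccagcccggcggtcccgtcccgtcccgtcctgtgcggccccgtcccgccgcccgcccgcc
MYLK: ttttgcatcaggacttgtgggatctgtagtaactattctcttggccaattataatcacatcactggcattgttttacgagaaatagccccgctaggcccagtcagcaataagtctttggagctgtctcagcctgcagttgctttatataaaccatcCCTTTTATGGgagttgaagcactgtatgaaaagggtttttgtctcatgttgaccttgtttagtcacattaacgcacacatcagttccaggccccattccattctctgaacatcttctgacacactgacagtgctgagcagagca
ACTG2 held 2 matches, which began at positions -110 and -73 from the start, and the single matches of CNN2 and MYLK began at -89 and -94. A match describes these letters and is not a measured binding site.

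**Figure D2:**
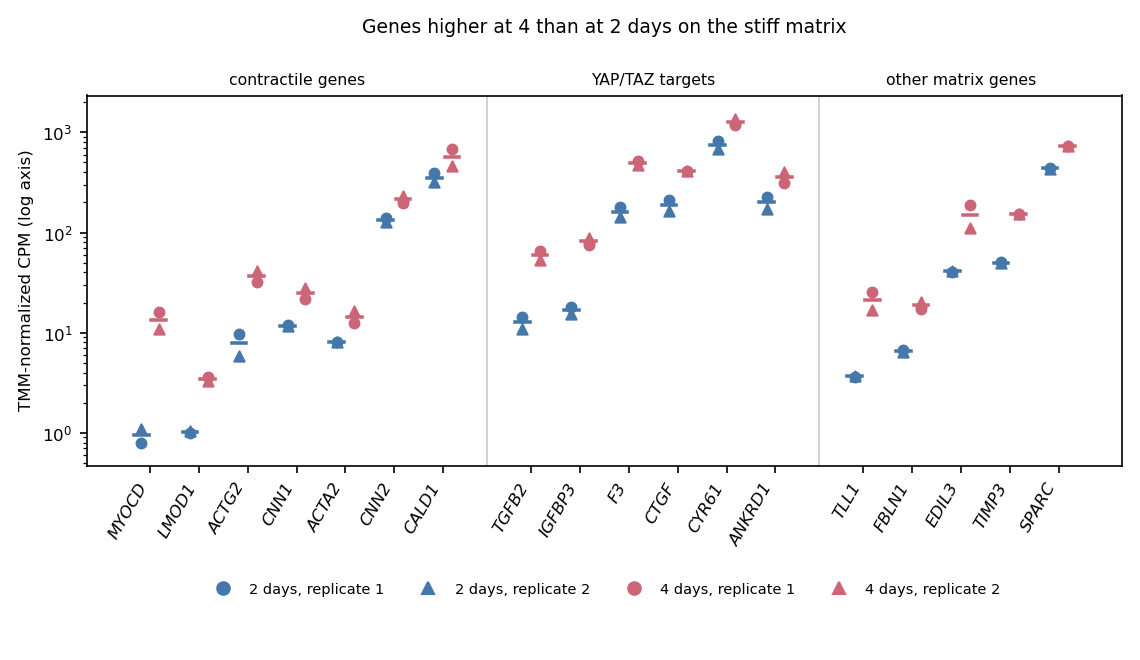
TMM-normalized CPM on a log axis (y) of 18 genes called higher at 4 days (x), in the 2 libraries at 2 days (blue) and the 2 at 4 days (red), with replicate 1 as circles, replicate 2 as triangles and the mean as a bar. In each gene both 4-day libraries lie above both 2-day libraries, and MYOCD shows the widest gap, with a log2 fold change of 3.83.

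Target genes of YAP and TAZ, the co-activators that respond to matrix stiffness, moved in both directions. Of 22 tested, 8 were higher and 4 lower, with a median log2 fold change of 0.32, and with the offset 10 were higher and 2 lower. Without replicate 1 of the 4-day cells, 9 were higher and 8 lower. IGFBP3, which binds insulin-like growth factors outside the cell, measured 18.1 and 15.3 CPM at 2 days and 75.3 and 88.3 CPM at 4 days (log2 fold change 2.29, standard error 0.160, adjusted p = 0.000737). TGFB2, a ligand of the TGF-beta family, measured 14.4 and 10.8 CPM at 2 days and 65.0 and 53.4 CPM at 4 days (log2 fold change 2.23, standard error 0.194, adjusted p = 0.00129). F3, which encodes tissue factor, went from 179 and 143 CPM to 523 and 469 CPM (log2 fold change 1.62, adjusted p = 0.00140). In these 3 genes the replicates of each day lay close together and far from the other day.

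CTGF, the matricellular growth factor that is also a standard YAP target, measured 209 and 165 CPM at 2 days and 410.5 and 409.6 CPM at 4 days (log2 fold change 1.13, standard error 0.151, adjusted p = 0.00301). CYR61, its close relative, and ANKRD1, a nuclear ankyrin protein, rose by 0.77 and 0.83 on the log2 scale. RBMS3 and NUAK2, an RNA-binding protein and a kinase, rose by 1.37 and 0.86. The 4 targets that fell were DOCK5 (-1.47), ARHGEF17 (-1.16), PTPN14 (-1.01) and FJX1 (-0.72). DOCK5 and ARHGEF17 encode exchange factors of small GTPases, and PTPN14 a phosphatase that restrains YAP.

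Among non-collagen matrix glycoproteins, 12 of 37 tested genes were higher and 5 lower, with a median log2 fold change of 0.28, and with the offset 15 were higher and 1 lower. Without replicate 1 of the 4-day cells the balance was 12 higher and 12 lower. EDIL3, an integrin ligand, measured 40.6 and 41.2 CPM at 2 days and 186 and 109.8 CPM at 4 days (log2 fold change 1.86, standard error 0.243, adjusted p = 0.00290). FBLN1, which encodes the elastic fibre and basement membrane protein fibulin-1, measured 6.76 and 6.45 CPM at 2 days and 17.4 and 20.4 CPM at 4 days (log2 fold change 1.51, standard error 0.199, adjusted p = 0.00292). SPARC, a collagen-binding matricellular protein, went from 442 and 434 CPM to 726 and 728 CPM (log2 fold change 0.73, adjusted p = 0.00675). FBLN1 and SPARC had tight replicates on both days, while EDIL3 was higher in replicate 1 than in replicate 2 of the 4-day cells.

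LAMA2 and VTN, a laminin chain and vitronectin, had log2 fold changes of 2.08 and 2.03, but from levels of 0.378 and 0.419 CPM at 2 days and 1.67 and 1.73 CPM at 4 days for LAMA2 and 1.22 and 1.72 CPM at 2 days and 3.93 and 8.12 CPM at 4 days for VTN. SPP1, or osteopontin, EFEMP1, MATN2 and LAMA4 rose by 1.65, 1.14, 1.21 and 0.79. The members that fell were TNXB (-1.51), LAMA5 (-1.40), FBLN2 (-0.96), LAMA3 (-0.84) and LAMB2 (-0.67), so laminin chains moved in both directions. FN1, which encodes fibronectin, was not called (log2 fold change 0.28, adjusted p = 0.478) at levels of 1169.7 and 999 CPM at 2 days and 1694 and 945 CPM at 4 days.

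Collagen genes were called lower more often than higher, but the balance of the non-fibrillar genes turned with the offset. Of the 8 fibrillar collagen genes tested, 1 was higher and 3 lower (median -0.28), and with the offset 1 was higher and 2 lower (median 0.21). COL5A1, a chain of the type V collagen that starts fibril assembly, measured 349.9 and 369 CPM at 2 days and 167 and 105 CPM at 4 days (log2 fold change -1.40, standard error 0.223, adjusted p = 0.00524). COL5A2, the other main chain of that collagen, moved the opposite way, with 117 and 129 CPM at 2 days and 312 and 177 CPM at 4 days (log2 fold change 0.99, standard error 0.254, adjusted p = 0.0254). COL27A1 and COL11A2 fell, with log2 fold changes of -1.57 and -1.26. The type I and III genes were not called: COL1A1 had a log2 fold change of -0.57 (adjusted p = 0.0574), or 0.06 with the offset, and COL3A1 one of 0.57 (adjusted p = 0.298).

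Of 16 other collagen genes, 1 was higher and 4 lower (median -0.26), against 6 higher and 1 lower with the offset (median 0.27). COL6A3, a chain of the microfibrillar type VI collagen, had the largest fall, with 408 and 415 CPM at 2 days and 86.1 and 40.2 CPM at 4 days (log2 fold change -2.70, standard error 0.354, adjusted p = 0.00290). COL7A1, COL6A1 and COL17A1 had log2 fold changes of -1.58, -0.82 and -0.75. COL8A1, a chain of the network-forming type VIII collagen, rose unevenly in the 4-day libraries, with 34.8 and 27.4 CPM at 2 days and 112 and 48.8 CPM at 4 days (log2 fold change 1.37, standard error 0.362, adjusted p = 0.0282). Without replicate 1 or 2 of the 4-day cells its log2 fold change was 0.65 or 1.83.

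Enzymes that process and crosslink collagen were split, with 2 of 22 higher and 5 lower, and 7 higher and 2 lower with the offset. LOX, the lysyl oxidase that starts crosslinks, went from 149 and 128 CPM to 273 and 204 CPM (log2 fold change 0.78, adjusted p = 0.0145). TLL1, a tolloid-like protease that trims procollagen and activates LOX, measured 3.61 and 3.73 CPM at 2 days and 25.7 and 16.8 CPM at 4 days (log2 fold change 2.54, standard error 0.265, adjusted p = 0.00178). ADAMTS14 and ADAMTS2, which remove procollagen N-propeptides, fell (-1.63 and -0.99), as did the lysyl hydroxylases PLOD3 and PLOD1 (-0.70 and -0.41) and the prolyl hydroxylase subunit P4HA2 (-0.63).

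Of 14 matrix metalloproteinase and TIMP genes, 2 were higher and 3 lower (median -0.23), against 3 and 2 with the offset (median 0.14). TIMP3, the matrix-bound inhibitor of metalloproteinases, measured 50.5 and 49.4 CPM at 2 days and 154 and 153 CPM at 4 days (log2 fold change 1.62, standard error 0.120, adjusted p = 0.000846), and it remained at 1.77 with the offset. MMP2, the gelatinase that stellate cells secrete, measured 4.24 and 5.99 CPM at 2 days and 1.72 and 1.73 CPM at 4 days (log2 fold change -1.57, standard error 0.258, adjusted p = 0.00588). MMP1, the interstitial collagenase, and MMP14, the membrane-bound activator of MMP2, had log2 fold changes of -1.26 and -0.43, and MMP19 one of 0.82. Of the proteases called, 3 thus fell and 1 rose. MMP9 was not called (log2 fold change -0.62, adjusted p = 0.200). The plasminogen system had 3 of 9 genes higher and 0 lower, and 2 and 0 with the offset. The higher genes were ANXA2, SERPINB2 and SERPINE2 (0.66, 0.68 and 0.47), a plasminogen receptor subunit and inhibitors of plasminogen activators and thrombin.

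Proteoglycan and hyaluronan genes had 3 of 20 members higher and 3 lower (median -0.02), against 6 and 2 with the offset (median 0.21). SRGN, which encodes the granule proteoglycan serglycin, and SDC4, the syndecan of focal adhesions, rose clearly, SRGN from 189 and 164 CPM to 518 and 683 CPM (log2 fold change 1.77, adjusted p = 0.00152) and SDC4 from 82.6 and 85.5 CPM to 209 and 249 CPM (log2 fold change 1.45, adjusted p = 0.00140). HSPG2, which encodes the basement membrane proteoglycan perlecan, fell from 80.1 and 88.7 CPM to 37.5 and 8.47 CPM (log2 fold change -1.87, adjusted p = 0.0436), and its log2 fold change was -3.32 or -1.18 without replicate 1 or 2 of the 4-day cells. SDC2, SDC3 and HYAL2 had log2 fold changes of 0.53, -0.47 and -0.74, and SDC3 one of 0.06 with the offset. VCAN and HAS2, which encode versican and a hyaluronan synthase, were not called (-0.31, adjusted p = 0.421, and -0.11, adjusted p = 0.722).

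Among integrin subunits, 1 of 20 was higher and 4 were lower, and 4 and 5 with the offset. The counts were 3 higher and 11 lower without replicate 1 of the 4-day cells and 5 and 4 without replicate 2. ITGA6, a laminin receptor subunit, measured 168 and 149.9 CPM at 2 days and 99.9 and 59.8 CPM at 4 days (log2 fold change -0.99, standard error 0.237, adjusted p = 0.0200). ITGA2 and ITGA10, collagen receptor subunits, fell, with log2 fold changes of -1.26 and -1.66, and ITGB5 one of -0.64. ITGB2, the leukocyte beta subunit, was the member that rose, at 2.69 and 1.68 CPM at 2 days and 4.42 and 7.14 CPM at 4 days. Focal adhesion and actin genes had 5 of 36 members higher and 4 lower, shares close to the background, and 12 higher and 2 lower with the offset. Their counts were 10 higher and 15 lower without replicate 1 of the 4-day cells and 10 and 9 without replicate 2. ACTB, cytoplasmic beta actin, and RHOA, the GTPase that drives stress fibres, rose by 1.07 and 0.77, whereas TNS1, FLNA and SRC, which encode tensin, filamin A and a kinase, had log2 fold changes of -1.29, -0.83 and -0.76.

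**Figure D3:**
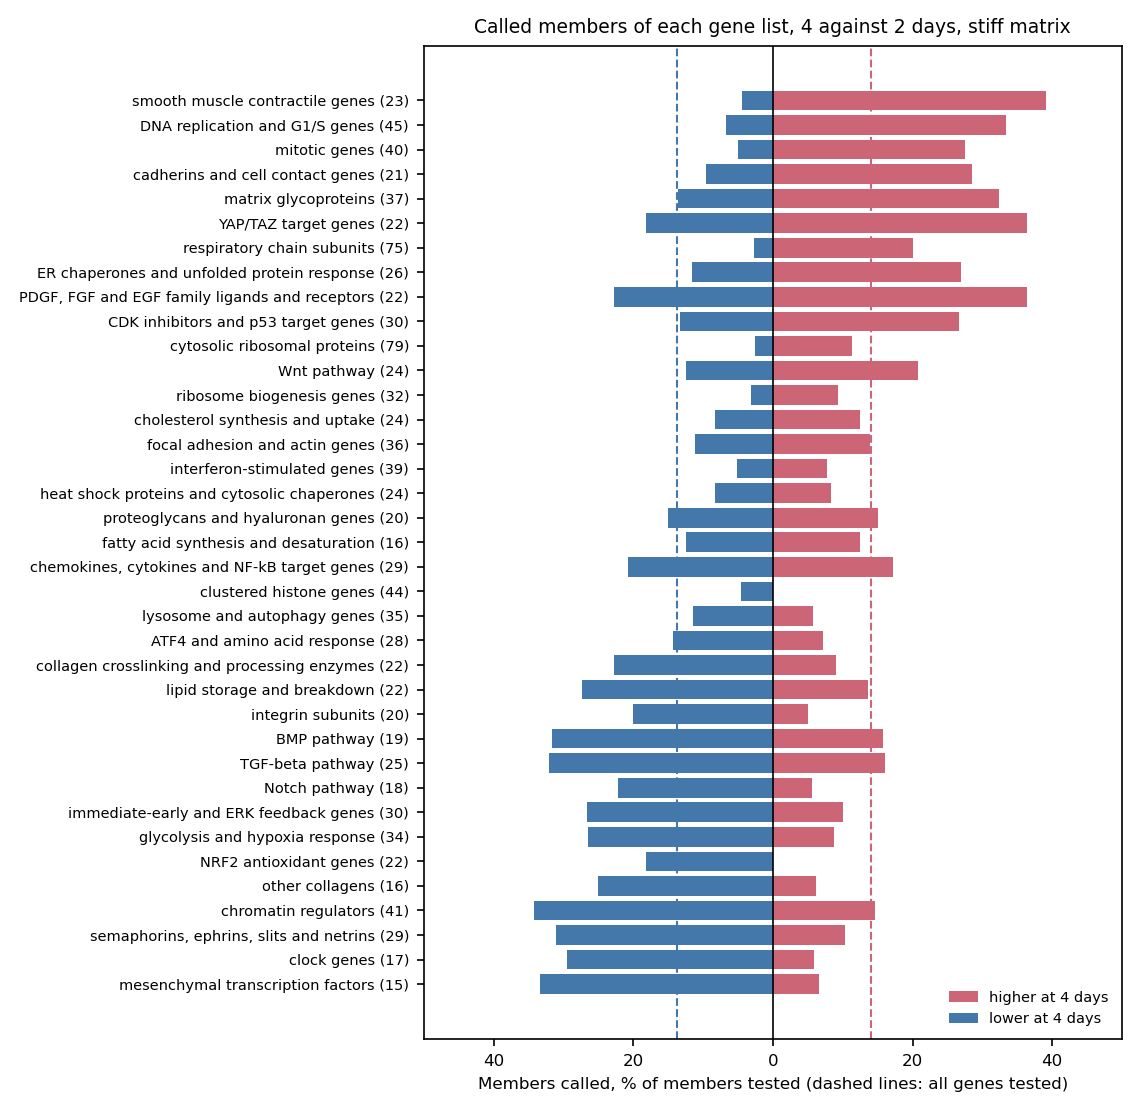
Share of the tested members of each gene list with at least 15 tested genes (rows, number tested in parentheses) that were called higher (red, to the right) or lower (blue, to the left) at 4 days, in %, with dashed lines at the shares over all genes tested, 14.0% and 13.7%. Smooth muscle contractile genes have the highest share of higher members (9 of 23) and chromatin regulators the highest share of lower members (14 of 41).

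In the list of PDGF, FGF, EGF and VEGF family genes, 8 of 22 tested were higher and 5 lower, and 9 and 6 with the offset. NRG1, AREG and HBEGF, ligands of the EGF receptor family, had log2 fold changes of 1.62, 1.44 and 0.44, FGF1 and FGF5 of 1.45 and 1.10, and VEGFC and PDGFC, ligands of VEGF and PDGF receptors, of 0.99 and 0.68. ERBB3, a receptor measured at 1.09 and 1.09 CPM at 2 days and 2.75 and 2.99 CPM at 4 days, was the other higher gene.

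On the lower side, EGFR, the EGF receptor, measured 90.4 and 87.1 CPM at 2 days and 37.3 and 8.12 CPM at 4 days (log2 fold change -1.96, standard error 0.586, adjusted p = 0.0419), so the 4-day replicates were both low but far apart. Without replicate 1 or 2 of the 4-day cells, its log2 fold change was -3.45 or -1.26. FGFR1 and FGFR3, receptors of FGF ligands, had log2 fold changes of -0.63 and -1.13, and FGFR4 fell as well. VEGFA, the hypoxia-induced vascular growth factor, fell from 44.9 and 44.5 CPM to 17.4 and 12.7 CPM (log2 fold change -1.57, adjusted p = 0.00185).

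Of 11 genes of the insulin-like growth factor axis, 2 were higher and 1 lower, and 4 and 1 with the offset. IGFBP5, a binding protein that also attaches to matrix, measured 22.4 and 18.6 CPM at 2 days and 176 and 99.9 CPM at 4 days (log2 fold change 2.75, standard error 0.283, adjusted p = 0.00177), and IGFBP3 is given above. IRS2, the adaptor below the insulin receptor, fell (log2 fold change -0.53, adjusted p = 0.0208), but not with the offset (0.05). GFRA1, the co-receptor of the neurotrophic factor GDNF, was among the largest rises at 18.7 and 14.7 CPM at 2 days and 141 and 113 CPM at 4 days (log2 fold change 2.93, standard error 0.184, adjusted p = 0.000737). Its gene lies on chromosome 10, 117816436 to 118036315 (GRCh37).

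In the TGF-beta pathway, 4 of 25 genes tested were higher and 8 lower (median -0.30), and with the offset 4 were higher and 6 lower (median -0.07). Without replicate 1 or 2 of the 4-day cells, 5 or 6 were higher and 15 or 10 lower. On the higher side were the ligand TGFB2, the receptor TGFBR1 (0.65), the common mediator SMAD4 (0.43) and LRRC32 (1.41), which anchors latent TGF-beta on cells. SMAD7, the inhibitory SMAD that the pathway itself induces, measured 61.5 and 56.9 CPM at 2 days and 21.8 and 19.6 CPM at 4 days (log2 fold change -1.52, standard error 0.139, adjusted p = 0.00138). SMAD6, its relative in BMP signalling, fell from 19.3 and 18.8 CPM to 9.72 and 7.95 CPM (log2 fold change -1.10, adjusted p = 0.00586). The latent TGF-beta binding proteins LTBP2, LTBP4 and LTBP3 (-1.31, -1.17 and -0.78), the activin subunit INHBA (-1.10), the co-receptor ENG (-0.71) and the ligase SMURF1 (-0.63) made up the other falls, of which LTBP3 had a log2 fold change of 0.06 with the offset.

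Among 19 BMP pathway genes, 3 were higher and 6 lower, and 4 and 7 with the offset. The ID genes, direct targets of BMP signalling that block helix-loop-helix factors, fell together. ID1 measured 205 and 212 CPM at 2 days and 84.5 and 135 CPM at 4 days (log2 fold change -0.92, standard error 0.228, adjusted p = 0.0224), and ID2 and ID3 had log2 fold changes of -0.85 and -0.86. SMAD9, a BMP mediator, had one of -0.91. BMP4, a ligand, rose from 17.7 and 16.0 CPM to 52.3 and 39.5 CPM (log2 fold change 1.45, adjusted p = 0.00273), as did the extracellular antagonists FST (1.84) and GREM1 (0.59). BMP6, a ligand, and NBL1, an antagonist, were called lower from levels that were already low, BMP6 from 0.882 and 0.921 CPM to 0.0982 and 0 CPM and NBL1 from 0.924 and 0.963 CPM to 0 and 0.0576 CPM.

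Of 24 Wnt genes, 5 were higher and 3 lower, and 7 and 3 with the offset, but 5 and 7 without replicate 1 of the 4-day cells. SFRP1 and DKK1, secreted Wnt antagonists, went from 112 and 117 CPM to 451 and 269.9 CPM (log2 fold change 1.66, adjusted p = 0.00385) and from 495 and 449 CPM to 1029.8 and 999 CPM (log2 fold change 1.10, adjusted p = 0.00230), and FZD6, WNT5B and LEF1 rose by 1.39, 0.99 and 0.58. The ligand WNT9A went from 1.30 and 1.84 CPM to 0.246 and 0.0576 CPM, and the receptor genes FZD8 and LRP5 fell, with log2 fold changes of -1.55 and -1.14. Of 18 Notch genes, 1 was higher and 4 lower (median -0.56), against 3 and 3 with the offset. NOTCH1 and NOTCH2, HES1 and MAML1, which are receptors, a target and a co-activator, had log2 fold changes of -1.25, -0.86, -1.04 and -0.98, and RBPJ, their DNA-binding partner, one of 1.05.

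AP-1 factors are dimers of FOS and JUN family proteins, and the family did not move as one. FOS, an immediate-early gene, measured 2.77 and 2.60 CPM at 2 days and 13.0 and 12.3 CPM at 4 days (log2 fold change 2.23, standard error 0.183, adjusted p = 0.00123). JUN, its partner, fell by a smaller amount, with 545 and 499 CPM at 2 days and 379 and 333 CPM at 4 days (log2 fold change -0.55, adjusted p = 0.0241). FOSL1, another FOS family member, fell from 585 and 571 CPM to 314 and 324 CPM (log2 fold change -0.86, adjusted p = 0.00381), and ATF3 was not called (log2 fold change -0.46, adjusted p = 0.132). In the full list, 1 of 12 tested genes was higher and 2 lower, and 2 and 3 with the offset.

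Other immediate-early and ERK feedback genes had 3 of 30 members higher and 8 lower, and 6 and 5 with the offset. EGR1, a zinc finger factor induced by serum and stretch, rose from 38.4 and 29.5 CPM to 87.3 and 87.4 CPM (log2 fold change 1.36, adjusted p = 0.00217). SPRED1 and DUSP6, inhibitors of the ERK pathway, rose by 0.78 and 0.48. NR4A1, KLF2, KLF10 and SPRY4 fell, with log2 fold changes of -0.88, -0.85, -0.79 and -0.75. EGR1 thus moved opposite to the 8 members that fell, as FOS did to JUN and FOSL1.

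Transcription factors of mesenchymal cells had 1 of 15 members higher and 5 lower, and 4 and 6 with the offset. TWIST2, SNAI1, SNAI2 and TWIST1, repressors of epithelial genes, had log2 fold changes of -1.43, -1.28, -0.85 and -0.67, and FOXC2 one of -1.48. KLF5, a factor of epithelial and smooth muscle cells, rose by 0.78. SNAI2 measured 49.0 and 50.4 CPM at 2 days and 26.7 and 28.6 CPM at 4 days, and its 4-day values lay below both 2-day values.

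Genes of DNA replication and of mitosis were called higher more often than lower. Of 45 replication and G1/S genes, 15 were higher and 3 lower (median 0.27), and with the offset 16 and 4 (median 0.21). GINS1, a subunit of the replicative helicase, rose from 43.1 and 39.5 CPM to 80.6 and 92.0 CPM (log2 fold change 1.06, adjusted p = 0.00317), and its partner GINS2 by 1.35. PCNA, the polymerase clamp, measured 169.7 and 171 CPM at 2 days and 233 and 418 CPM at 4 days (log2 fold change 0.94, standard error 0.268, adjusted p = 0.0364). FEN1, CDC6 and MCM6, which serve flap cleavage and origin loading, rose by 0.82, 0.78 and 0.74. POLD1 and POLE, the catalytic subunits of the lagging and leading strand polymerases, and TYMS, which makes thymidylate, fell, with log2 fold changes of -1.01, -0.97 and -0.93.

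Of 40 mitotic genes, 11 were higher and 2 lower (median 0.38), but with the offset 8 were higher and 4 lower (median 0.00), so the balance of this list changed with the correction. PTTG1, or securin, measured 135 and 129.8 CPM at 2 days and 228 and 467 CPM at 4 days (log2 fold change 1.39, standard error 0.308, adjusted p = 0.0153). MAD2L1, of the spindle checkpoint, CDK1, the mitotic kinase, and BIRC5, or survivin, rose by 1.22, 1.09 and 0.99. ESPL1, the separase that securin holds inactive, and PLK1 fell, with log2 fold changes of -0.90 and -0.65. Without replicate 1 or 2 of the 4-day cells, 16 or 24 mitotic genes were higher and 11 or 4 lower.

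Promoters of replication genes are shown because E2F factors, which drive G1/S genes, bind the letters TTTCGCGC or TTTGGCGC, searched for on both strands. Promoters were found for 30 of the 45 genes, of which 11 held these letters (36.7%), against 403 of all 35116 promoters (1.15%). They were held by 4 of the 10 higher genes, 1 of the 2 lower genes and 6 of the 18 that were not called. The 2 genes shown were both called higher, MCM6 at chr2:135876394-135876693 on the minus strand and CDC6 at chr17:40287629-40287928 on the plus strand, and capitals mark the matches.
MCM6: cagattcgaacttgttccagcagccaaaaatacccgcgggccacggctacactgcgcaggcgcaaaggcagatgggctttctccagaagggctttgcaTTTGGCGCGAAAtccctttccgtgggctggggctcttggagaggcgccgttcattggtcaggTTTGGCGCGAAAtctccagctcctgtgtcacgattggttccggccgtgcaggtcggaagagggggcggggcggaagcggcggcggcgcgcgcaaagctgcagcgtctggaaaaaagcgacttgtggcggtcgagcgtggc
CDC6: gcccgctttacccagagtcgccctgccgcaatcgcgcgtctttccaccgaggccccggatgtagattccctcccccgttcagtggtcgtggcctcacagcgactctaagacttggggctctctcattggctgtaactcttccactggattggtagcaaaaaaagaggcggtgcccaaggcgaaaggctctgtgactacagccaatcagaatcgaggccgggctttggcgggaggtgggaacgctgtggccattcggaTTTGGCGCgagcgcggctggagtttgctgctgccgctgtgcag
In MCM6 each stretch of capitals is a pair of overlapping matches, 1 on each strand, that begin at positions -152 and -148 from the start in the first stretch. The match in CDC6 begins at position 8, just after the start.

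Cell cycle inhibitors and p53 targets had 8 of 30 members higher and 4 lower, and 10 and 1 with the offset. MDM2, the ligase that removes p53, measured 23.9 and 23.0 CPM at 2 days and 57.3 and 55.1 CPM at 4 days (log2 fold change 1.26, standard error 0.146, adjusted p = 0.00217). ZMAT3, CCNG1 and TP53INP1, also p53 targets, rose by 1.16, 1.08 and 0.91, and CDKN1B, the inhibitor p27, by 0.61. CDKN1A, the inhibitor p21 and a main p53 target, fell instead, from 22.5 and 21.9 CPM to 16.7 and 16.4 CPM (log2 fold change -0.42, adjusted p = 0.0431), and PHLDA3 and SESN2 had log2 fold changes of -0.86 and -0.67.

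Genes of the hypoxia response fell in several cases, while their list was split. Of 34 glycolysis and hypoxia genes, 3 were higher and 9 lower (median 0.08), and 6 and 7 with the offset. Without replicate 1 of the 4-day cells, 10 were higher and 10 lower. DDIT4, an inhibitor of mTORC1 that hypoxia induces, measured 28.6 and 30.5 CPM at 2 days and 8.69 and 9.39 CPM at 4 days (log2 fold change -1.71, standard error 0.152, adjusted p = 0.00129). ANGPTL4, a secreted lipase inhibitor that hypoxia and fatty acids induce, went from 6.13 and 5.11 CPM to 0.884 and 0.864 CPM (log2 fold change -2.68, adjusted p = 0.00130). PFKFB4, KDM3A and PFKFB3 fell, with log2 fold changes of -1.06, -0.73 and -0.73. ADM, or adrenomedullin, also a hypoxia target, moved the opposite way, from 78.4 and 61.3 CPM to 135 and 180.0 CPM (log2 fold change 1.17, adjusted p = 0.00504).

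In the antioxidant group of NRF2 targets, 0 of 22 genes were higher and 4 lower by edgeR, and 3 and 3 with the offset. These counts were 7 and 6 without replicate 1 of the 4-day cells and 4 and 5 without replicate 2. HMOX1, or heme oxygenase 1, which breaks down heme, had the largest fall at 134 and 121 CPM at 2 days and 19.4 and 25.2 CPM at 4 days (log2 fold change -2.52, standard error 0.174, adjusted p = 0.000737). AKR1C1 and ABCC1 had log2 fold changes of -1.39 and -0.58. Some metallothioneins, which bind zinc and copper, were called higher. Of 8 tested genes of metallothioneins and zinc transport, 3 were higher and 0 lower, and 3 and 1 with the offset. The median log2 fold change of this list was 0.67, and 1.07 or 0.39 without replicate 1 or 2 of the 4-day cells. Its genes are short, with a median of 473.5 bases, and 4 of the 8 share at least 10% of their sequence with other genes. The part of length and shared sequence in these rises was not tested. The higher genes were MT1F at 2.48 and 2.76 CPM at 2 days and 9.08 and 18.5 CPM at 4 days (log2 fold change 2.39, adjusted p = 0.00454), MT1X (1.07) and MT1E (1.05).

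Lipid genes were split as well. Of 22 lipid storage and breakdown genes, 3 were higher and 6 lower (median -0.11), against 6 and 5 with the offset (median 0.07). Among the lower genes were PLIN4 (-2.06), a lipid droplet coat protein, DGAT1 (-1.21), which makes triglycerides, and the fatty acid oxidation genes ACADVL (-1.16) and CPT1A (-0.79). FABP5, a fatty acid carrier, rose by 1.27. FASN, fatty acid synthase, fell from 400.2 and 412 CPM to 188 and 108 CPM (log2 fold change -1.45, adjusted p = 0.00852), and SREBF1, the factor that drives it, had a log2 fold change of -0.66. SCD5 and ME1, a desaturase and a source of NADPH, rose by 0.94 and 0.78.

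Chromatin regulators had the highest share of lower members among lists of at least 15 tested genes, by a small margin. It was 34.1%, against 33.3% for mesenchymal transcription factors, 32.0% for the TGF-beta pathway and 13.7% over all genes tested. Of 41 tested, 6 were higher and 14 lower (median -0.45), and with the offset 5 and 16 (median -0.16). KMT2D, a histone H3 lysine 4 methyltransferase of enhancers, measured 183 and 184 CPM at 2 days and 51.2 and 25.2 CPM at 4 days (log2 fold change -2.26, standard error 0.297, adjusted p = 0.00290). KMT2A, a related enzyme, measured 147 and 145 CPM at 2 days and 41.1 and 29.3 CPM at 4 days (log2 fold change -2.05, standard error 0.194, adjusted p = 0.00140). EP300, a histone acetyltransferase, fell from 99.1 and 96.1 CPM to 38.5 and 16.3 CPM (log2 fold change -1.83, adjusted p = 0.0101), as did its relative CREBBP (-0.97). In each of these genes both 4-day libraries lay far below both 2-day libraries, with replicate 2 the lower of them in KMT2D, KMT2A and EP300.

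KDM6B, ARID1A and DNMT1, which encode a demethylase, a remodelling subunit and a DNA methyltransferase, had log2 fold changes of -1.52, -1.12 and -0.85. The members that rose were CBX5, HMGB2, HDAC2, HMGB1, EZH2 and LMNB1, with log2 fold changes of 1.15, 0.94, 0.81, 0.74, 0.47 and 0.43. KMT2D has a GC content of 59.8% and a length of 19419 bases, and with the offset for both its log2 fold change was -1.39 (adjusted p = 0.00297).

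Guidance receptors and clock genes also had more lower than higher members. Of 29 semaphorin, plexin, ephrin, slit and netrin genes, 3 were higher and 9 lower (median -0.37), and 7 and 10 with the offset. PLXNA2 and PLXNA1, receptors of semaphorins, went from 65.8 and 65.3 CPM to 22.8 and 13.0 CPM (log2 fold change -1.87, adjusted p = 0.00393) and from 162 and 168 CPM to 70.5 and 42.7 CPM (log2 fold change -1.54, adjusted p = 0.00553). UNC5B, a netrin receptor, and SEMA4B fell, with log2 fold changes of -2.33 and -1.15. The secreted ligand SEMA3A rose from 2.94 and 2.14 CPM to 11.6 and 5.82 CPM (log2 fold change 1.78, adjusted p = 0.0110), and SEMA3E from 0.0420 and 0.0419 CPM to 0.688 and 0.806 CPM, which is near the detection limit. Of 17 clock genes, 1 was higher and 5 lower, and 2 and 5 with the offset. The called genes were NPAS2 (-1.74), BHLHE40 (-1.69), PER2 (-0.97), ARNTL (-0.92) and PER1 (-0.63) against NR1D2 (0.65). The hour of harvest is not given in the sources used here.

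**Figure D4:**
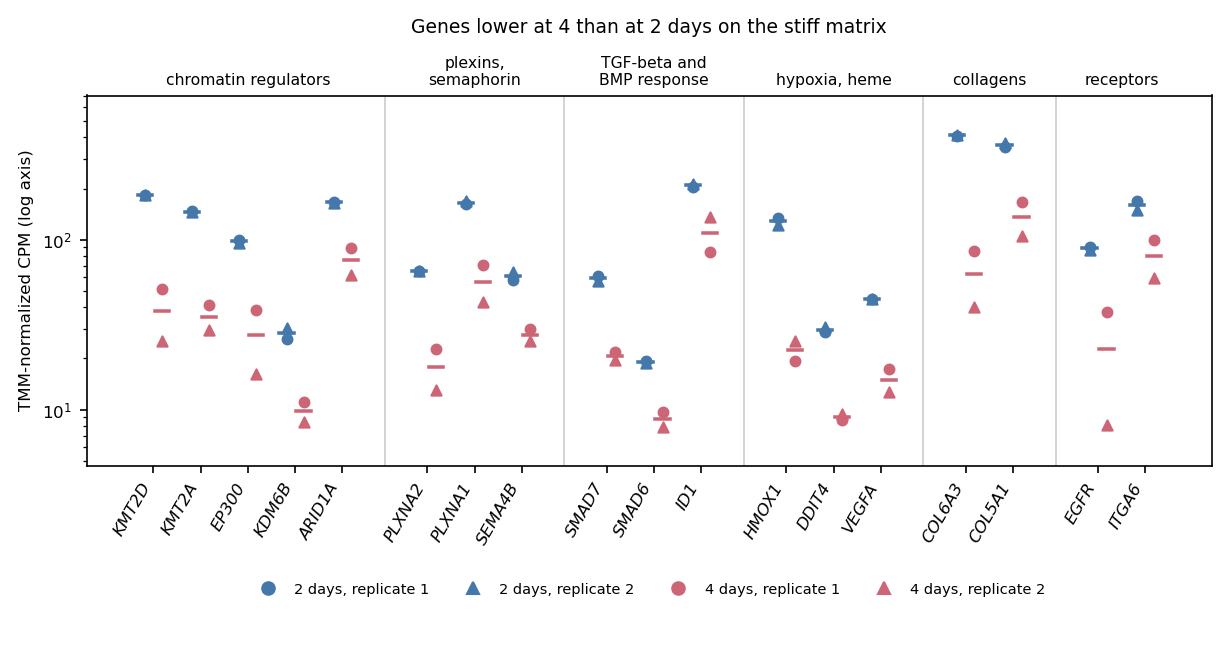
TMM-normalized CPM on a log axis (y) of 18 genes called lower at 4 days (x), in the 2 libraries at 2 days (blue) and the 2 at 4 days (red), with replicate 1 as circles, replicate 2 as triangles and the mean as a bar. In each gene both 4-day libraries lie below both 2-day libraries. The 4-day replicates lie apart from each other in part of the genes, most of all in EGFR, and close together in others, such as SMAD7 and DDIT4.

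The 15 largest rises, among genes whose average log2 CPM was 1 or more, ran from a log2 fold change of 2.41 to 4.58. MSTN, or myostatin, a TGF-beta family inhibitor of muscle growth, led them with 0.336 and 0.126 CPM at 2 days and 6.78 and 4.43 CPM at 4 days (log2 fold change 4.58, standard error 0.434, adjusted p = 0.00140) and lies on chromosome 2, 190920426 to 190927455 (GRCh37). DCDC2, a microtubule-binding protein, and TMEM40 followed MYOCD, with 0.462 and 0.503 CPM at 2 days and 5.70 and 6.62 CPM at 4 days (log2 fold change 3.66, adjusted p = 0.000846) and 1.18 and 1.21 CPM at 2 days and 10.9 and 14.0 CPM at 4 days (log2 fold change 3.37, adjusted p = 0.000737). AP1M2, an epithelial clathrin adaptor subunit, RNF144B, a p53-induced ligase, FLRT2, a guidance ligand, and DCLK1, a doublecortin-like kinase, rose by 3.31, 2.81, 2.62 and 2.41. The other members were MIR221, DIRC3, GNGT2 and TMEM178B, with log2 fold changes of 3.06, 2.57, 2.44 and 2.42, beside GFRA1, IGFBP5 and TLL1 above. MIR221 is a microRNA locus, and these libraries do not tell reads of its precursor from those of a longer host transcript.

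The 15 largest falls, by the same rule, held several genes whose sequence other genes share. They ran from a log2 fold change of -3.27 to -5.37. Such genes were the pseudogenes GOLGA6L17P and HERC2P3, the intronless copies PABPC3 and H3F3C, CGB1 of the chorionic gonadotropin cluster and ATAD3C of a tandem family. The pseudogene TPI1P3 shares 5.77% of its 31-base words, MIR3687 and MIR3648 share 0%, and MIR663A had no match in the annotation. The 2-day replicates of these 3 MIR loci were far apart, at 2.85 and 21.6 CPM for MIR3687, 1.85 and 12.5 CPM for MIR663A and 10.5 and 47.9 CPM for MIR3648. With the offset for length and GC content, MIR3687 was not called (adjusted p = 0.0718 by edgeR). H3F3C, which encodes a variant histone H3, measured 8.40 and 7.37 CPM at 2 days and 0.393 and 0.288 CPM at 4 days (log2 fold change -4.50, adjusted p = 0.000737), and 35.0% of its 31-base words occur in another gene. TXNDC5, ATP5E and COX16, an ER foldase, a subunit of ATP synthase and a cytochrome oxidase assembly factor, each form part of an annotated read-through gene that joins them to a neighbour. TXNDC5 measured 21.5 and 23.1 CPM at 2 days and 1.47 and 0.461 CPM at 4 days (log2 fold change -4.48, adjusted p = 0.00140). Reads of such overlapping genes cannot be assigned with certainty, so these falls are uncertain as changes of the named genes. SRPK3, a muscle kinase that shares 30.7% of its 31-base words, and IVL complete the list.

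This pattern held beyond the largest falls. Of the 265 falls of at least 4-fold, 145 shared at least 25% of their words with another gene, were a pseudogene or were part of a joined read-through gene, against 22 of the 120 rises of at least 4-fold. Among all 14570 genes tested, 1661 shared 25% to under 75% of their words and 491 shared 75% or more. Of the 491 genes that share at least 75% of their words, 5.09% were higher and 32.0% lower (median -0.63), and of 317 pseudogenes, 10 were higher and 108 lower (median -0.74). Among 142 genes that are part of a joined gene, 16 were higher and 32 lower. RPS10, a ribosomal protein gene of this kind, fell (log2 fold change -2.94, standard error 0.258, adjusted p = 0.00129). Of the 9249 genes with under 10% shared words, 1378 were called higher (14.9%) and 1215 lower (13.1%).

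Genes with large falls and little shared sequence were picked after their values were seen. IVL, or involucrin, a precursor of the keratinocyte envelope, measured 7.35 and 5.74 CPM at 2 days and 0.393 and 0.288 CPM at 4 days (log2 fold change -4.23, standard error 0.329, adjusted p = 0.00108) and shares 0% of its words. PTHLH, the parathyroid hormone-related peptide, measured 9.45 and 10.5 CPM at 2 days and 1.52 and 0.806 CPM at 4 days (log2 fold change -3.07, standard error 0.264, adjusted p = 0.00129). APCDD1L, a relative of a Wnt inhibitor, fell, with a log2 fold change of -2.74, and COL6A3, ANGPTL4, HMOX1, UNC5B and KMT2D above belong here too. PTHLH and IVL had 4-day values far under both 2-day values.

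In the lists of ribosomal proteins and respiratory chain subunits, the counts depended on 1 library. Of 79 cytosolic ribosomal protein genes, 9 were higher and 2 lower (median 0.37), and 16 and 6 with the offset (median 0.14). Without replicate 1 of the 4-day cells, 72 were higher and 3 lower (median 0.80), and without replicate 2, 9 were higher and 28 lower (median -0.18). Of 75 respiratory chain genes, 15 were higher and 2 lower (median 0.50), and 18 and 5 with the offset (median 0.20), against 61 and 2 (median 0.86) without replicate 1 and 15 and 19 (median -0.03) without replicate 2. The median gene length was 849 bases in the first list and 951 in the second, against 3188.5 over all genes tested, and replicate 2 is the library in which short genes took 28.1% of the counts. NDUFB5 and COX6C, subunits of complexes I and IV, rose by 1.51 and 1.42, and by 1.11 and 0.76 without replicate 2. RPL22 and RPS3A, with log2 fold changes of 1.08 and 1.21, gave 0.57 and 0.51 without it.

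The change with time was close to that on the soft matrix. There, 2052 genes were higher (14.1%) and 1933 lower (13.3%) at 4 days, in their own 4 libraries but by the same fit, whose estimate of the spread both comparisons share. Of the genes called on the stiff matrix, 1495 higher (73.5%) and 1514 lower (76.1%) were called in the same direction on the soft matrix, which is 72.9% and 78.3% of the soft calls, and 1 was called in the opposite direction. Across the 14570 genes, which are not independent replicates, the log2 fold changes were correlated (Pearson r 0.83, Spearman rho 0.84), and 12376 had the same sign. GFRA1, TIMP3 and ID1 had log2 fold changes of 2.75, 1.82 and -0.63 on the soft matrix.

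The difference between the matrices in the change with time was tested gene by gene as an interaction. By edgeR, 0 genes (0% of those tested) passed the adjusted threshold, with a smallest adjusted p of 0.9997 and 284 at an unadjusted p-value under 0.05. DESeq2 called 3 genes, FOS, OASL and VCAM1. FOS rose by 2.23 on the stiff matrix and had a log2 fold change of 0.35 on the soft matrix, a difference of 1.88 (standard error 0.263, unadjusted p = 0.000108) in edgeR that did not pass adjustment. For MYOCD, the log2 fold change on the soft matrix was 2.04 and the difference 1.79 (standard error 0.398, unadjusted p = 0.00207). For IGFBP3 the difference was 1.13 (standard error 0.218, unadjusted p = 0.000885), for MMP2 -1.32 (standard error 0.337, unadjusted p = 0.00466), for ACTA2 -0.13 (standard error 0.253, unadjusted p = 0.620) and for CTGF 0.53 (standard error 0.211, unadjusted p = 0.0370). None of these differences passed adjustment by edgeR. Without replicate 1 or 2 of the stiff 4-day cells, a single library of that condition remains. The spread between its cultures is then not measured, so calls of the difference from those fits are not read here.

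**Figure D5:**
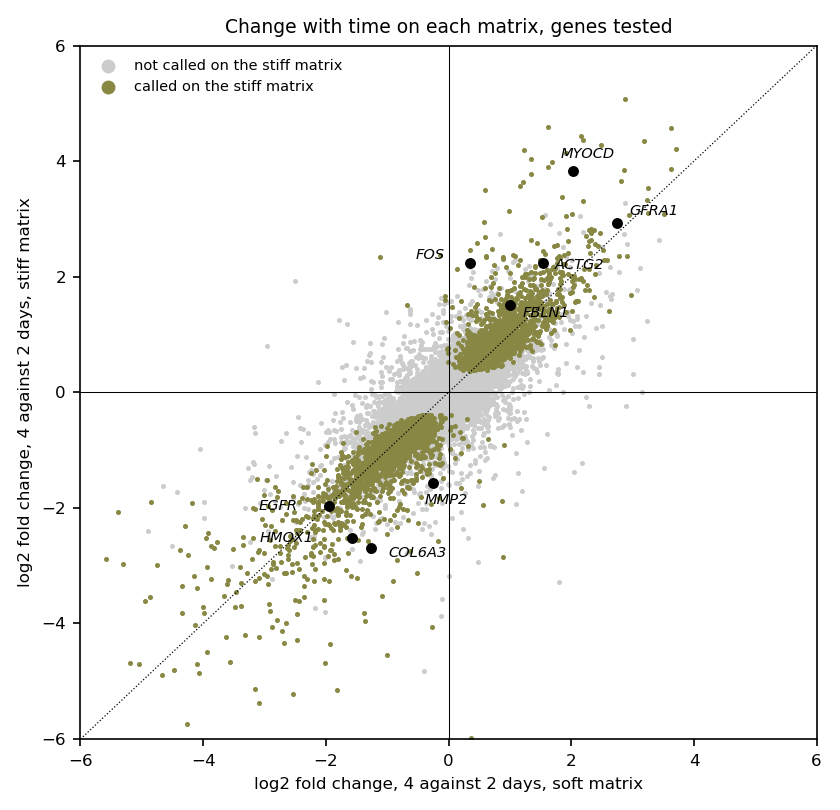
Log2 fold change at 4 against 2 days on the stiff matrix (y axis) against that on the soft matrix (x axis) for the 14570 genes tested, 1 point a gene, olive where called on the stiff matrix, with a dotted line of equal change and 32 points beyond the axis limit of 6. The points follow the line (Pearson r of 0.83), and FOS, MYOCD and MMP2, marked in black, lie off it without passing the adjusted test of the difference by edgeR.

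Among cell contact genes, CDH4, or R-cadherin, rose from 179 and 169.8 CPM to 255 and 257 CPM (log2 fold change 0.55, adjusted p = 0.0254). CDH10 was called higher (3.34), but its levels of 0 and 0.168 CPM at 2 days and 1.03 and 0.749 CPM at 4 days are near the detection limit. CDH2, or N-cadherin, and CTNNB1, or beta-catenin, were not called, with log2 fold changes of 0.21 (adjusted p = 0.287) and 0.15 (adjusted p = 0.398). The full list had 6 of 21 members higher and 2 lower, and 8 and 2 with the offset. CTNND1 and PCDH9 had log2 fold changes of -3.12 and -1.34, and CTNND1 is part of a joined read-through gene. GJA1, or connexin 43, and PKP2, a desmosomal plaque protein, rose by 1.52 and 1.64.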

How the data were processed

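RNA-seq counts of LX-2 cells in 4 conditions were used. Per the labels and the study's methods, the authors trimmed reads with Trim Galore, mapped them to hg19 with STAR 2.7.1a and counted them per gene with HTSeq. The gene annotation and strand setting are not given in the sources used here. The deposited counts are raw. The deposited FPKM are the authors' values scaled by size factors and gene length, and entered as an alternative only.

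Tests ran in R 4.3.3 with edgeR 4.0.16, on genes passing filterByExpr, with TMM factors, on all 8 libraries and 4 conditions. Calls used a Benjamini-Hochberg adjusted p-value under 0.05. Standard errors are the fold change over the root of the F statistic. Alternatives used DESeq2 1.42.0, limma 3.58.1, offsets from splines (5 degrees of freedom) of log length and GC content, and fits without single libraries. The fits were also run on simulated counts with an equal spread in every library. Those runs do not bear on the unequal spread of the libraries used here. Lengths came from the FPKM. Shared sequence, GC content and positions came from GENCODE v44lift37 (GRCh37), with 21538 symbols matched directly and 1498 by an older symbol. With 19955975 to 27263935 counts per library, genes under 1 CPM rest on few counts.

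The comparison, gene lists and named genes were chosen with earlier results of these data known. Named were the 15 largest rises and falls (average log2 CPM of at least 1, no overlap, and the same sign without each stiff library), per list the called members with the largest changes, and the genes the study measured by name. A few list members are not reported here by name.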

Additional observations from a re-analysis of the deposited data

Results flagged for a closer look

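By the DESeq2 test of the difference between the matrices in the change with time, 3 genes passed the adjusted threshold, and none of them did by edgeR. FOS, an AP-1 factor, measured 2.77 and 2.60 CPM at 2 days and 13.0 and 12.3 CPM at 4 days on the stiff matrix and 2.29 and 2.45 CPM at 2 days and 2.80 and 3.25 CPM at 4 days on the soft matrix, so that its rise was larger on the stiff matrix (difference on the log2 scale 1.89, standard error 0.377, adjusted p = 0.00836 by DESeq2). OASL, an interferon-induced gene, measured 3.27 and 4.98 CPM at 2 days and 2.21 and 2.19 CPM at 4 days on the stiff matrix and 11.7 and 12.2 CPM at 2 days and 23.1 and 21.5 CPM at 4 days on the soft matrix, and it moved in opposite directions on them (difference -1.81, standard error 0.381, adjusted p = 0.0145 by DESeq2). VCAM1, an adhesion molecule for leukocytes, measured 0.588 and 1.26 CPM at 2 days and 1.23 and 0.288 CPM at 4 days on the stiff matrix, where the days overlapped, and 2.75 and 2.45 CPM at 2 days and 18.8 and 20.1 CPM at 4 days on the soft matrix (difference -3.15, standard error 0.674, adjusted p = 0.0145 by DESeq2). OASL and VCAM1 lie at low counts in every stiff library.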

How the results depend on the processing

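Counts of genes higher and lower at 4 days on the stiff matrix, 2034 and 1990, stayed within 1.5 times under DESeq2, RLE factors, other count filters, the offset for length and GC content and limma on FPKM. They were 1305 higher without scaling factors (lower: 2313), 1061 and 963 with limma voom and sample quality weights, and 3111 higher with the offset for length alone. A 2-fold minimum left 659 and 967, and 1378 and 1215 of the calls were genes with under 10% shared sequence. The 4 stiff libraries on their own gave 0 and 0 by edgeR and 821 and 1067 by DESeq2. Leaving out 1 library gave 165 to 3960 higher and 305 to 3866 lower, fewest without a 2-day library. Genes that differed between the matrices were 0 in the main fit, 3 by DESeq2, 1 with log2(FPKM + 0.1), 11 with log2(FPKM + 1) and no filter, and 0 to 3139 without 1 library. The cause of these differences was not tested.

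Entering the replicate number into the model as a block gave 1221 higher and 1322 lower genes, of which 1220 and 1320 were called without it. Deviations of same-numbered stiff libraries from their day's mean had a correlation of 0.02, so the numbers were not taken to pair the cultures.

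Of the named genes, a few changed sign. With the offset for length and GC content these were COL1A1 (0.0569), CTNNB1 (-0.0188), IRS2 (0.0505), LTBP3 (0.0580), MYLK (0.0574) and SDC3 (0.0636), of which IRS2, LTBP3 and SDC3 had been called. Leaving out 1 library gave ranges of -0.20 to 0.64 for FN1, -0.45 to 0.15 for HAS2, -0.93 to 0.35 for MYLK, -1.66 to 0.40 for VCAM1 and -0.76 to 0.0204 for VCAN, with the lowest value of each without replicate 1 of the 4-day cells, and of -0.12 to 0.39 for LHX2 and -0.56 to 0.56 for RELN. None of these were called with all libraries.

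The offset, the shared-sequence filter and DESeq2 on 4 libraries were added after the data were seen. With 2 libraries a condition, the spread of the 4-day cells is poorly known, and low counts limit genes under 1 CPM.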

Other observations

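Of 39 interferon-stimulated genes tested, 3 were higher and 2 lower on the stiff matrix (5 and 6 with the offset for length and GC content), against 20 higher and 0 lower on the soft matrix, and 0 of them passed the edgeR test of the difference between the matrices. IFIT1, an RNA-binding antiviral protein, measured 13.7 and 15.3 CPM at 2 days and 25.6 and 27.4 CPM at 4 days on the stiff matrix (log2 fold change 0.87, adjusted p = 0.00686) and 20.2 and 24.5 CPM at 2 days and 62.5 and 61.6 CPM at 4 days on the soft matrix (log2 fold change 1.47). Of 29 chemokine, cytokine and NF-kB target genes, 5 were higher (17.2%) and 6 lower (20.7%), and 2 and 5 with the offset, against 11 and 0 on the soft matrix. CXCL12, the chemokine that binds CXCR4, fell from 763 and 756 CPM to 512 and 512 CPM (log2 fold change -0.57, adjusted p = 0.0169), and IL1A and IL6 were called higher from low levels, IL1A from 0.294 and 0.628 CPM to 2.06 and 1.73 CPM and IL6 from 0.924 and 1.17 CPM to 2.01 and 2.19 CPM. Of 14 complement genes, 1 was higher and 1 lower, and 2 and 1 with the offset. SERPING1, the C1 inhibitor, rose from 3.15 and 3.43 CPM to 8.59 and 11.5 CPM (log2 fold change 1.61, adjusted p = 0.00292).

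Protein folding genes of the endoplasmic reticulum had 7 of 26 members higher and 3 lower, and 6 and 2 with the offset for length and GC content. HSP90B1 and CALR, chaperones of its lumen, had log2 fold changes of 1.01 and 0.81, and the sensor ERN1 one of -1.34. Of 24 heat shock proteins and cytosolic chaperones, 2 were higher and 2 lower, 0 and 4 with the offset, 13 and 3 without replicate 1 of the 4-day cells and 2 and 6 without replicate 2. The lower ones were HSPA1A (-1.34) and HSPA1B (-1.37), near-identical copies that share 76.0% and 74.6% of their 31-base words with other genes, so their counts cannot be told apart. ULK1, the kinase that starts autophagy, fell from 138 and 152 CPM to 52.9 and 61.0 CPM (log2 fold change -1.35, adjusted p = 0.00194) in a list of 35 lysosome and autophagy genes with 2 higher and 4 lower. These were 6 and 5 with the offset, 13 and 6 without replicate 1 of the 4-day cells and 3 and 9 without replicate 2. The cholesterol list had 3 of 24 genes higher and 2 lower (5 and 7 with the offset), the amino acid response 2 of 28 and 4 (4 and 7), ribosome biogenesis 3 of 32 and 1 (2 and 3), and the clustered histone genes 0 of 44 and 2 by edgeR (2 and 1).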
